A study of Mus musculus with 13 samples.

Results

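The 3 arrays of CD103 high dendritic cells from mice given muramyl dipeptide (MDP CD103 high) were compared with the 4 arrays of CD103 low dendritic cells from mice given PBS (PBS CD103 low), which makes 7 of the 13 arrays of the study. These groups were chosen because they held the most and the least RNA of Itgae, the gene of CD103, so Itgae is given as a description and without a test. In MDP CD103 high 84 genes rose and 5 fell. Of the 84 genes, 35 belong to 5 lists of genes of DNA replication, DNA repair and cell division, and the largest rise among these was that of Lrr1, by 1.19 on the log2 scale. Of the 171 measured genes of these lists 20.5% rose, against 0.379% of all genes. The lists were chosen with earlier results of these data known, so these shares are a description.

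All mice were C57Bl/6 littermates, labelled male and 6 weeks old, and each bore B16 melanoma cells under the skin that release Flt3L, on which dendritic cells expand. After tumour growth for 5 days they received 100 ul of PBS into the peritoneum, either alone or with 50 ug of muramyl dipeptide (MDP), a piece of bacterial peptidoglycan. Spleens were digested with collagenase D 24 h later, CD205+CD8+ dendritic cells were sorted, and these were split by surface CD103 into a low and a high fraction. The other arrays, 3 of PBS CD103 high and 3 of MDP CD103 low, share the fit and give the intermediate steps. Every group, PBS included, came from mice with the tumour, so all values are those of dendritic cells expanded by Flt3L. The groups compared differ both in treatment and in sort fraction, which cannot be told apart within this difference. Nothing in the labels states that each array came from a mouse of its own, so p-values measure the spread between arrays, which may in part be technical, and the number of arrays limits the precision.

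CD205+CD8+ cells of the spleen are type 1 conventional dendritic cells (cDC1), which take up dead cells and show their antigens to CD8 T cells. CD103 is the alpha E integrin chain, which pairs with the beta 7 chain encoded by Itgb7 and binds E-cadherin, and its surface level on these cells is known to respond to GM-CSF. MDP is sensed inside the cell by NOD2, which activates NF-kB through the kinase RIPK2. Dendritic cell precursors divide before they mature, and dividing cells switch on their replication genes through E2F factors and their mitotic genes through MYBL2, FOXM1 and the CCAAT-binding factor NF-Y. Dendritic cells that mature stop taking up antigen and express the chemokine receptor CCR7, which guides them to T cell zones.

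Values are log2 probe set values, 1 probe set per gene for 22180 genes, and differences are MDP CD103 high minus PBS CD103 low on the log2 scale with the SE of the limma fit. A gene is described as having risen or fallen where its p-value, adjusted by Benjamini-Hochberg over all genes, was under 0.05. The 95th percentile of 1088 olfactory receptor genes, which these cells should not use, was 5.11 and served as the background level. Array medians lay between 5.00 and 5.13, and arrays correlated with each other at a Pearson r of 0.976 to 0.991 across genes. Although all mice were labelled male, Xist, the RNA of the inactive X chromosome, lay between 10.98 and 11.21 on 7 arrays and between 4.47 and 6.69 on the other 6. The 7 arrays were 2 of 3 in MDP CD103 high, 2 of 4 in PBS CD103 low, 2 of 3 in PBS CD103 high and 1 of 3 in MDP CD103 low. Uty, Kdm5d and Eif2s3y, which lie on the Y chromosome, averaged 3.50 to 4.39 on these 7 arrays, under the background level. They averaged 7.85 to 8.21 on the remaining 6. The RNA of the 7 arrays thus did not match the male label, and the reason was not tested. MDP CD103 low replicate 1 stood apart from its group in genes of dendritic cell maturation, and it bears on the results below through the shared estimate of the spread. It also enters the mean of its group, and so the steps over MDP CD103 low and the interaction.

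The promoters of 6 of the division genes that rose are shown because these genes moved together and because E2F and CCAAT motifs are the known control elements of such genes. Each line gives the 100 bases before the transcription start from RefSeq on build GRCm38.p6, 5′ to 3′ in the direction of the gene, and capitals mark the bases of any motif searched, on either strand. CCAAT is the motif of NF-Y and reads ATTGG on the other strand. As E2F-type motifs TTCCCGC was searched beside its variant TTGGCGC. As motifs of the cell cycle homology region, known from mitotic genes, TTTGAA was searched beside its variant TTTCGAA. The NF-kB motif was GGGA, then any 4 bases, then CC. Lrr1, Brip1 and Kntc1 had the largest rises among the division genes, whereas E2f7, Prim1 and Cenpk were picked after their values were seen because they hold an E2F-type motif in this window. They lie at chr12:69168714-69168813 (Lrr1, plus strand), chr11:86201194-86201293 (Brip1, minus strand), chr5:123749626-123749725 (Kntc1, plus strand), chr10:110745339-110745438 (E2f7, plus strand), chr10:128015115-128015214 (Prim1, plus strand) and chr13:104229288-104229387 (Cenpk, plus strand, the third of 3 listed starts; of the other two, the first holds no motif in its window and the second only CCAAT).
Lrr1: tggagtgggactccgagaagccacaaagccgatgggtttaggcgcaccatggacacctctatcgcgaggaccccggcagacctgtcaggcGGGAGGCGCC
Brip1: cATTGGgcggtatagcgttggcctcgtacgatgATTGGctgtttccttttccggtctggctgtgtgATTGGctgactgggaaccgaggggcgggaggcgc
Kntc1: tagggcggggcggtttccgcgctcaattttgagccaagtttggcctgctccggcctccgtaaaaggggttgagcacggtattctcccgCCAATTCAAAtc
E2f7: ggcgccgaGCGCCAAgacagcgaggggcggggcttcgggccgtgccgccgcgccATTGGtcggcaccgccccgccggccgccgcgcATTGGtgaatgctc
Prim1: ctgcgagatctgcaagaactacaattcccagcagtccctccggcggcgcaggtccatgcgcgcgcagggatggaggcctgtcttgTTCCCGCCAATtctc
Cenpk: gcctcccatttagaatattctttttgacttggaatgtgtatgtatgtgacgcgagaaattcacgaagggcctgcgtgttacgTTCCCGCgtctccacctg

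Brip1 held 3 CCAAT motifs in this window, all on the other strand, and E2f7 held 2 CCAAT motifs on the other strand beside the reverse form of TTGGCGC. In Prim1 the CCAAT motif overlaps TTCCCGC, in Kntc1 CCAAT overlaps the reverse form of TTTGAA by 1 base, and in Lrr1 the capitals are the NF-kB motif, which lies in a GC-rich stretch. Over the 250 bases before the start, 72 of the 84 genes that rose had a promoter in the RefSeq table, and 22 of these (30.6%) held an E2F-type motif, against 8.28% of the 16918 measured genes with a promoter and 5.62% of all 32851 promoters of this length. CCAAT was held by 39 of 72 (54.2%), against 38.7% of the measured genes and 33.8% of all promoters. The cell cycle homology motifs stood at 18.1% against 16.7% of the measured genes and 16.5% of all promoters, and the NF-kB motif at 20.8% against 22.3% and 17.6%. The promoters of the genes that rose had a median GC content of 58.8%, against 55.6% over the measured genes, and its part in these shares was not tested. Genes that rose from the division lists held an E2F-type motif in 11 of 29 promoters (37.9%), and all measured division genes in 39 of 143 (27.3%). CCAAT stood at 65.5% in the former and 59.4% in the latter, and the cell cycle homology motifs at 20.7% and 24.5%. All measured division genes thus held both of these motifs at least as often as the genes that rose. A match shows only that the letters are there.

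Itgae, by which the groups were chosen, stood at 8.35, 8.17, 7.73 and 7.46 on the PBS CD103 low arrays and at 11.44, 11.10 and 11.51 on the MDP CD103 high arrays. PBS CD103 high (10.16, 10.22 and 10.07) and MDP CD103 low (10.68, 10.07 and 9.64) lay between them and overlapped each other. The mean difference was 3.43, a 10.8-fold difference, of which 2.23 lay between PBS CD103 low and PBS CD103 high and 1.20 between PBS CD103 high and MDP CD103 high. Along the other path, MDP CD103 low stood 2.21 above PBS CD103 low and MDP CD103 high 1.22 above MDP CD103 low. The mean of CD103 low cells of MDP mice, 10.13, thus lay beside that of CD103 high cells of PBS mice, 10.15.

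**Figure D1:**
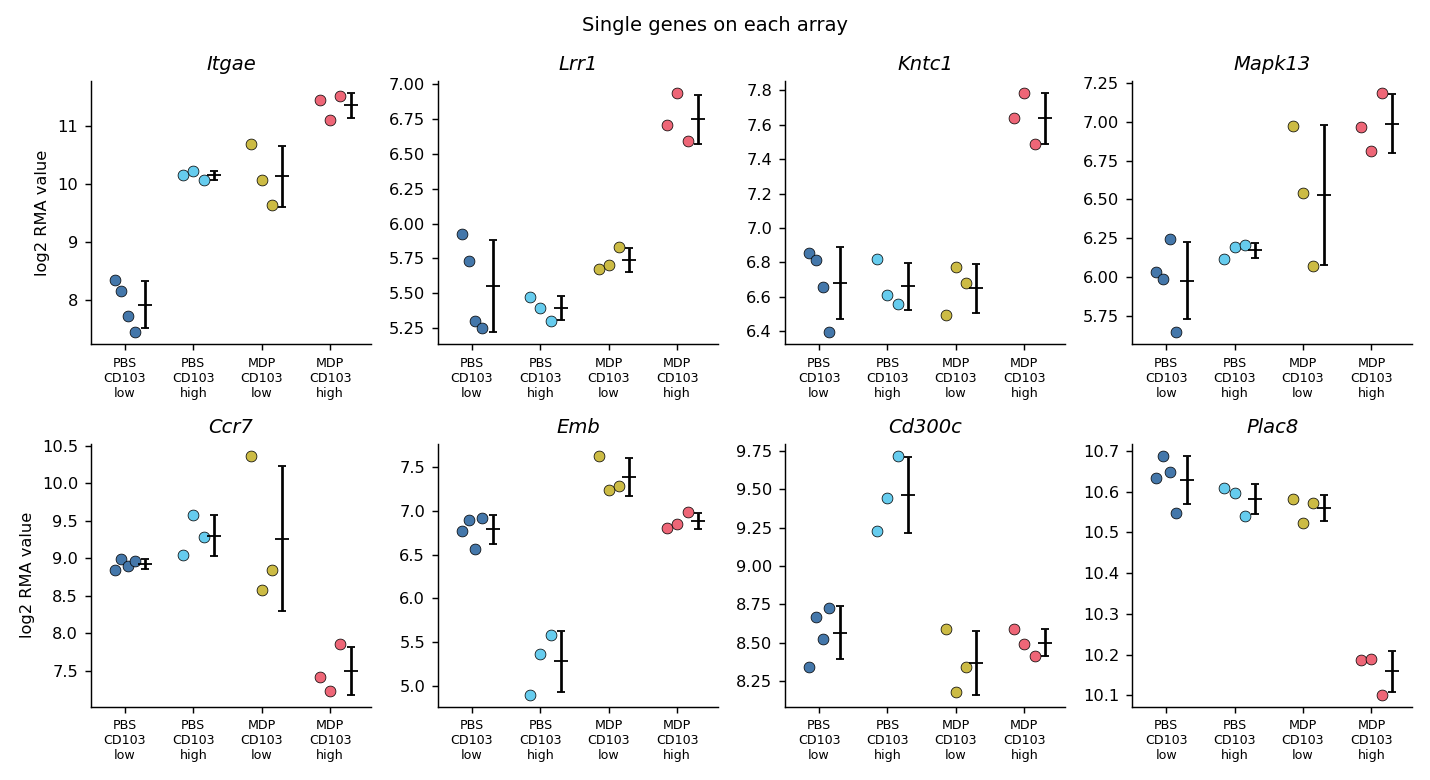
Log2 RMA value of 8 genes on each of the 13 arrays (points, by group), with the group mean and SD beside them; each panel has its own vertical axis, which does not start at 0. Lrr1 and Kntc1 lie higher on the 3 MDP CD103 high arrays than on any other array, Plac8 and Ccr7 lie lower, and Emb and Cd300c part PBS CD103 high from the other groups.

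Of 22179 genes tested without Itgae, 89 passed the threshold (0.401%), 84 of them higher (0.379%) and 5 lower (0.0225%) in MDP CD103 high, and 1929 had an unadjusted p under 0.05. The rises lay between 0.36 and 1.46 with a median of 0.66, and Mtss1, Lrr1, the predicted gene Gm19505, Mapk13 and Brip1 reached at least 2-fold. In all 89 genes the arrays of both groups did not overlap, which held for 8.97% of all genes tested. Of the 84 genes that rose, 35 belong to 5 lists of cell division genes, and the other 49 are on none of them. The lists were chosen with earlier results of these data known, so the counts on them are a description. The 5 lists held 171 measured genes, of which 35 (20.5%) rose and 0 fell, 166 had a difference above 0, and the median difference was 0.52 against -0.01 over all genes. Of all genes tested, 10104 had a difference above 0 and 12075 below. Genes of a list can move together on an array, so counts of signs, here and for the lists below, are a description. In sorted cells, a larger share of dividing cells and more of these RNAs in each cell cannot be told apart.

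The mean over the 171 division genes was 7.70, 7.70, 7.64 and 7.47 on the PBS CD103 low arrays (replicates 1, 3, 4 and 6) and 8.13, 8.15 and 8.06 on the MDP CD103 high arrays (replicates 2, 3 and 4). It was 7.65, 7.43 and 7.33 in PBS CD103 high and 7.39, 7.68 and 7.64 in MDP CD103 low, so that each of the 3 MDP CD103 high arrays lay above all other arrays. The number of genes past the threshold depended on single arrays: without MDP CD103 high replicate 2 or 3 it was 0 (1681 and 1714 genes with an unadjusted p under 0.05), without replicate 4 of that group 20, and without PBS CD103 low replicate 1, 3, 4 or 6 it was 22, 23, 21 and 4. Arrays outside the pair moved it through the shared spread, to 187 without MDP CD103 low replicate 1, 52 without replicate 2 and 38 without replicate 3 of that group, and 36 without PBS CD103 high replicate 5. With all probe sets of the array adjusted together 0 passed, while 2822 had an unadjusted p under 0.05, and with the 7 arrays of both groups alone 148 passed. The median of the division genes was 0.46 to 0.55 when any of the 13 arrays was left out. Among arrays with high Xist it was 0.46 (2 arrays against 2) and among those with low Xist 0.61 (1 array against 2), and a fit with the Y-linked genes as a covariate called 63 genes.

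**Figure D2:**
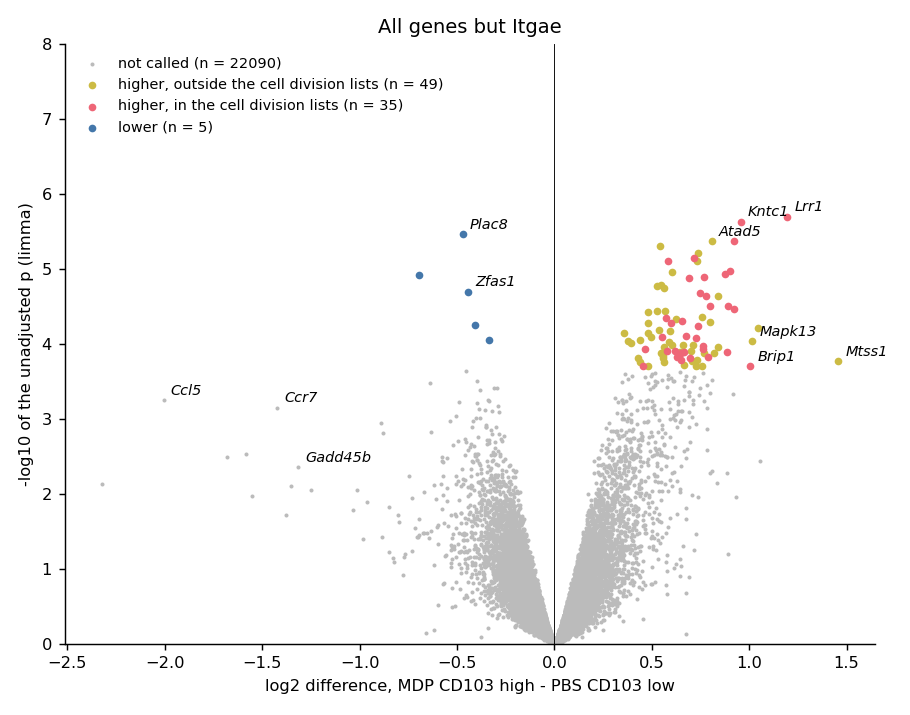
Log2 difference of MDP CD103 high minus PBS CD103 low (horizontal) against -log10 of the unadjusted limma p (vertical) for each of 22179 genes, with genes past the threshold in colour. The 84 genes that rose lie between 0.36 and 1.46, 35 of them from the division lists, whereas larger negative differences, such as those of Ccl5 and Ccr7, belong to genes that did not pass.

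Genes of DNA replication formed the largest group. Of 39 measured members of the list 15 rose and 0 fell, all 39 had a difference above 0, and the median was 0.55. The mean over the list was 7.86 to 8.15 on the PBS CD103 low arrays and 8.58 to 8.62 on the MDP CD103 high arrays. Lrr1 (probe set 17275875, chromosome 12), the substrate receptor of the ubiquitin ligase that takes the replicative helicase off finished DNA, stood at 5.93, 5.73, 5.30 and 5.25 on the PBS CD103 low arrays and at 6.71, 6.94 and 6.60 on the MDP CD103 high arrays. The groups did not overlap, and Lrr1 rose by 1.19 ± 0.15 (2.29-fold, limma adjusted p = 0.016). Cdc6 (chromosome 11), which loads the helicase onto origins, stood at 7.85, 7.91, 7.59 and 7.26 against 8.47, 8.62 and 8.62. Its rise was 0.92 ± 0.15 (limma adjusted p = 0.028), with PBS CD103 low replicate 6 the lowest array.

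Both subunits of the primase, which lays down the RNA primers of DNA synthesis, were among the genes that rose. Prim2 stood at 7.47, 7.59, 7.28 and 7.40 against 8.17, 8.15 and 8.04 and rose by 0.69 ± 0.10 (limma adjusted p = 0.017). Prim1, named for its promoter, stood at 7.04, 6.93, 7.03 and 6.51 against 7.59, 7.69 and 7.53, a rise of 0.73 ± 0.13 (limma adjusted p = 0.039). Rfc3, a subunit of the loader of the sliding clamp PCNA, stood at 6.95, 6.97, 6.87 and 6.76 against 7.48, 7.44 and 7.50 and rose by 0.58 ± 0.08 (limma adjusted p = 0.016). The MDP CD103 high arrays were close to each other in these genes, with an SD of 0.07 for Prim2, 0.08 for Prim1 and 0.03 for Rfc3 (n = 3). Atad5, which unloads PCNA and was on no list, rose by 0.81 ± 0.11 (limma adjusted p = 0.016).

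Of 16 measured genes of nucleotide synthesis, 1 rose and 0 fell, 15 differences were above 0 and the median was 0.21. The gene that rose was Rrm2 (chromosome 12), the subunit of ribonucleotide reductase whose level limits the supply of DNA building blocks. It stood at 8.31, 8.14, 7.86 and 7.89 in PBS CD103 low against 8.95, 8.96 and 8.91 in MDP CD103 high, a rise of 0.89 ± 0.14 (limma adjusted p = 0.026).

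Homologous recombination and the Fanconi pathway repair broken and crosslinked DNA at replication forks. Of 20 measured members 8 rose and 0 fell, all 20 differences were above 0, and the median of 0.64 was the highest of the 25 pathway lists. Brip1 (chromosome 11), a helicase that binds BRCA1, stood at 7.04, 7.01, 6.91 and 6.46 in PBS CD103 low and at 7.94, 8.08 and 7.57 in MDP CD103 high, a rise of 1.01 ± 0.20 (2.01-fold, limma adjusted p = 0.049). Brca1 itself (chromosome 11) stood at 6.10, 6.39, 6.26 and 5.91 against 7.13, 7.21 and 6.78 and rose by 0.88 ± 0.13 (limma adjusted p = 0.017). Fancd2 (chromosome 6), which marks crosslinked DNA for repair, stood at 6.80, 6.80, 6.65 and 6.71 against 7.61, 7.60 and 7.32, a rise of 0.77 ± 0.11 (limma adjusted p = 0.017). In these 3 genes MDP CD103 high replicate 4 was the lowest array of its group and still lay above all PBS CD103 low arrays. Esco2 (chromosome 14), the acetyltransferase that ties sister chromatids together during replication, was nearly level in PBS CD103 low, at 6.98, 6.997, 6.89 and 6.95, and stood at 7.96, 7.86 and 7.74 in MDP CD103 high. It rose by 0.90 ± 0.13 (1.87-fold, limma adjusted p = 0.017).

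The list of mitosis and kinetochore genes had a median of 0.58, with all 60 measured differences above 0, yet 7 passed the test. Its mean was 7.43 to 7.68 on the PBS CD103 low arrays and 7.97 to 8.25 on the MDP CD103 high arrays, with replicate 4 the lowest of the latter. Kntc1 (probe set 17442332, chromosome 5), part of the spindle checkpoint, stood at 6.86, 6.81, 6.66 and 6.40 against 7.64, 7.78 and 7.49 and rose by 0.96 ± 0.12 (1.94-fold, limma adjusted p = 0.016). Cenpk (chromosome 13), a protein of the inner kinetochore, stood at 7.34, 7.24, 7.06 and 7.23 against 8.24, 8.13 and 8.05. It rose by 0.92 ± 0.12 (limma adjusted p = 0.016), and its partner Cenph rose by 0.74 ± 0.13 (limma adjusted p = 0.033). Mastl (chromosome 2), the Greatwall kinase that keeps mitotic phosphates in place, stood at 7.28, 7.20, 7.13 and 6.88 against 8.14, 7.99 and 7.90, a rise of 0.89 ± 0.16 (limma adjusted p = 0.041).

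**Figure D3:**
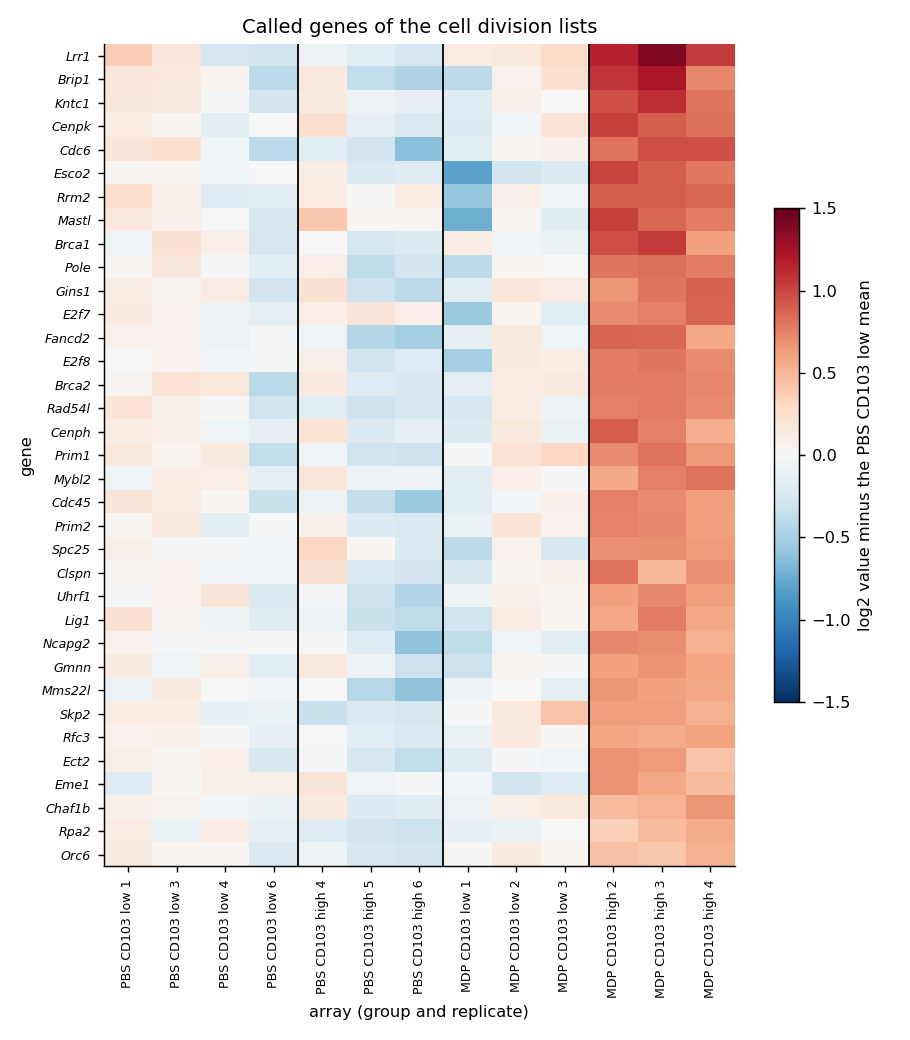
Log2 value minus the PBS CD103 low mean (colour) for the 35 division genes that rose (rows, ordered by their difference) on the 13 arrays (columns, by group and replicate). The 3 MDP CD103 high columns are red throughout, and no other group shows a column of that kind.

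Of 36 measured cyclins, cell cycle kinases and E2F-type factors 4 rose and 0 fell, and the median was 0.29 with 32 differences above 0. Mybl2 (chromosome 2), a transcription factor of mitotic genes, stood at 6.96, 7.13, 7.12 and 6.88 in PBS CD103 low and at 7.59, 7.78 and 7.84 in MDP CD103 high, a rise of 0.71 ± 0.10 (limma adjusted p = 0.016). E2f7 (chromosome 10), a repressor of the E2F family that is itself made in dividing cells, stood at 7.01, 6.92, 6.79 and 6.72 against 7.56, 7.61 and 7.73 and rose by 0.78 ± 0.12 (limma adjusted p = 0.021). Skp2 (chromosome 15), which marks the inhibitor p27 for degradation, rose by 0.60 ± 0.10 (limma adjusted p = 0.032). Cdk6, the kinase partner of the D-type cyclins, differed by -0.02 ± 0.13 and did not pass.

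Outside the lists, 49 genes rose. Roles in division were assigned to 24 of them after their values were seen, with no count of such roles over all genes to set beside this. For replication and repair these are Atad5, Topbp1, Ticrr, Mtbp, Ube2t, Rad18, Mcm8, Hrob and Ctc1, with rises of 0.39 to 0.81. The 11 genes of the spindle, the centriole and the chromosome, among them the augmin subunits Haus4, Haus5 and Haus6, the kinesin Kif18b and the tubulin Tubb5, rose by 0.36 to 0.66. Nup133, Nup155 and Ndc1 of the nuclear pore and Nrm of the nuclear envelope rose by 0.48 to 0.60. No such role was assigned to the other 25 genes.

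Some of the largest rises lay in those 25 genes. Mtss1 (probe set 17317327, chromosome 15), which bends membranes and binds actin, had the largest rise of all, 1.46 ± 0.28 (2.74-fold, limma adjusted p = 0.046). It was level in PBS CD103 low, at 5.82, 5.76, 5.75 and 5.86, and spread widely in MDP CD103 high, at 7.17, 6.68 and 7.90. On MDP CD103 low replicate 1 it also reached 7.30. Mapk13 (chromosome 17), the p38 delta kinase, stood at 6.03, 5.99, 6.24 and 5.64 against 6.97, 6.81 and 7.19 and rose by 1.01 ± 0.18 (limma adjusted p = 0.039).

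Relt (chromosome 7), a receptor of the tumour necrosis factor family, stood at 5.82, 5.95, 6.28 and 5.66 in PBS CD103 low against 6.69, 6.61 and 7.002 in MDP CD103 high, a rise of 0.84 ± 0.15 (limma adjusted p = 0.041). Its MDP CD103 low arrays (6.84, 6.53 and 6.62) overlapped those of MDP CD103 high. F2rl2 (chromosome 13), a protease-activated receptor, rose by 0.82 ± 0.15 (limma adjusted p = 0.041), and Mtfr2 (chromosome 10), a regulator of mitochondrial fission, by 0.84 ± 0.13 (limma adjusted p = 0.021). Across all 13 arrays, the genes whose values ran most closely with Itgae were Dapk1 (Pearson r = 0.894), Ttll4 (0.881), Dhrs3 (0.871), Cklf (0.841) and Mapk13 (0.829). These r values describe 13 arrays that share groups, and as the pair of groups was chosen by Itgae, the calls of such genes are not independent of that choice.

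The 5 genes that fell did so by small amounts. Plac8 (probe set 17450121, chromosome 5), a small cysteine-rich protein abundant in immune cells, stood at 10.63, 10.69, 10.65 and 10.55 in PBS CD103 low and at 10.19, 10.19 and 10.10 in MDP CD103 high. It fell by 0.47 ± 0.06 (limma adjusted p = 0.016), and the arrays of the other groups, at 10.52 to 10.61, lay with PBS CD103 low. Zfas1 (chromosome 2), a long noncoding RNA that hosts small nucleolar RNAs, stood at 10.49, 10.38, 10.45 and 10.50 against 10.04, 10.06 and 9.94 and fell by 0.44 ± 0.07 (limma adjusted p = 0.021). Zswim4, a zinc finger protein, fell by 0.34 ± 0.06 (limma adjusted p = 0.039). The other two, Olfr1052 and Olfr551, are olfactory receptor genes with values under the background level in each group, and they are named here because the count is small.

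Genes of dendritic cell maturation had large negative differences, and none of them passed the test. The largest negative difference of all genes, -2.33, was that of Pisd-ps3, which is on no list and did not pass either. The list of 46 measured genes of CCR7-type mature dendritic cells had 0 members higher and 0 lower, a median of -0.30, 43 differences below 0, and 15 members with an unadjusted p under 0.05. In 27 of the 46 the groups did not overlap, against 8.97% of all genes. The list mean was 7.44 to 7.66 on the PBS CD103 low arrays and 7.02, 7.03 and 7.18 on the MDP CD103 high arrays. In MDP CD103 low it was 8.52 on replicate 1 against 7.53 and 7.52 on the others.

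Ccr7 (chromosome 11) stood at 8.85, 8.99, 8.90 and 8.96 in PBS CD103 low and at 7.41, 7.24 and 7.85 in MDP CD103 high, with no overlap. The difference was -1.43 ± 0.32 (limma adjusted p = 0.096). Its MDP CD103 low arrays ranged from 8.58 to 10.37, with an SD of 0.97 (n = 3). Ccl5 (chromosome 11), a chemokine made by mature dendritic cells, stood at 9.13, 9.31, 9.05 and 8.39 against 6.41, 6.98 and 7.50, a difference of -2.01 ± 0.44 (limma adjusted p = 0.085). On MDP CD103 low replicate 1 it was at 11.19. Gadd45b (chromosome 10), a stress-induced gene downstream of NF-kB, differed by -1.32 ± 0.38 (limma adjusted p = 0.23). Relb (chromosome 7), the NF-kB subunit of mature dendritic cells, stood at 8.54, 8.65, 8.73 and 8.48 against 7.59, 7.90 and 8.08, a difference of -0.74 ± 0.23 (limma adjusted p = 0.26). Without MDP CD103 low replicate 1, 9 of the 46 genes passed, and the limma adjusted p was 0.0034 for Ccr7, 0.010 for Ccl5, 0.011 for Gadd45b and 0.014 for Relb. With the 7 arrays of both groups alone 7 of the 46 passed, and the limma adjusted p was 0.0091 for Ccr7 and 0.025 for Ccl5. Without genes under the background level 1 passed, with array weights 2, and with a variance trend, the random block or the Y-linked covariate 0. With any array but MDP CD103 low replicate 1 left out, 0 passed. Of 23 alternatives, Ccr7 passed in 3, Ccl5 in 4, and Gadd45b and Relb in 2 each. The highest limma adjusted p was 0.50 for Ccr7, 0.43 for Ccl5, 0.64 for Gadd45b and 0.67 for Relb.

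**Figure D4:**
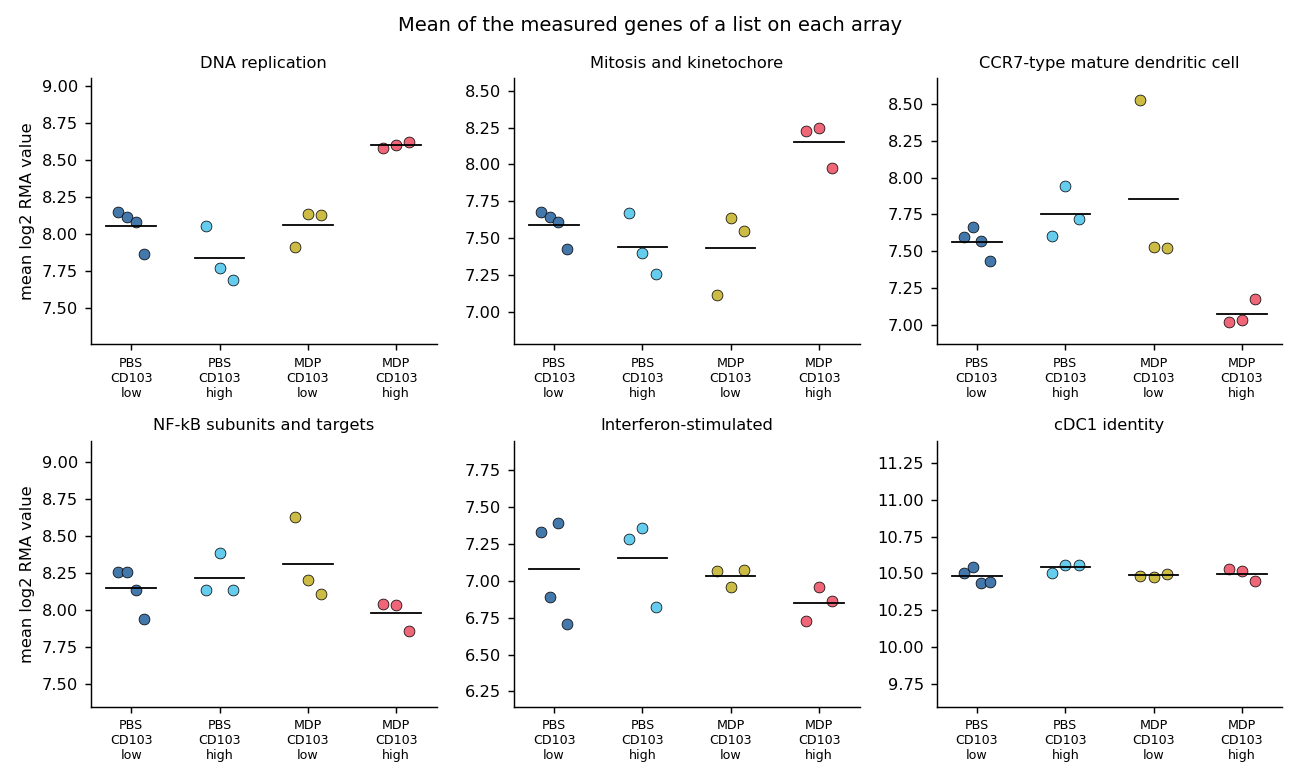
Mean log2 value of the measured genes of 6 lists on each of the 13 arrays (points, by group), with the mean of the arrays as a line; Itgae is left out of the cDC1 list, and all panels span the same range on an axis that does not start at 0. The 3 MDP CD103 high arrays lie above all others for DNA replication and mitosis and below all others for maturation, and MDP CD103 low replicate 1 stands high for maturation and NF-kB.

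Of 33 measured NF-kB subunits and targets, 0 passed in either direction, 27 differences were below 0 and the median was -0.21. Tnfaip3, the feedback inhibitor A20, stood at 9.36, 9.38, 9.46 and 9.21 against 8.78, 9.0004 and 8.90 (-0.46 ± 0.13, limma adjusted p = 0.20). Birc3, an NF-kB target that protects from cell death, differed by -0.28 ± 0.09 (limma adjusted p = 0.28). In the RefSeq promoters of 250 bases the NF-kB motif was found in 12 of 28 genes of this list (42.9%) and in 12 of 31 maturation genes (38.7%), against 22.3% of the measured genes with a promoter. All measured division genes held it at 27.3%. As this list was made of NF-kB targets and shares members such as Relb and Birc3 with the maturation list, these shares are a description. Of 31 interferon-stimulated genes 0 passed, 31 differences were below 0 and the median was -0.22, but the list mean of PBS CD103 low ranged from 6.70 to 7.39 and overlapped that of MDP CD103 high, 6.73 to 6.96.

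Of the pathways to which the treatment and the sort point, each list held 0 genes past the threshold. As 0.401% of all genes passed, a list of this size would hold about as few at the background share, so these counts of 0 are no result about the pathways. Nod2 (chromosome 8), the receptor for MDP, stood at 6.67, 6.79, 6.56 and 6.54 in PBS CD103 low and at 6.64, 6.66 and 6.73 in MDP CD103 high, a difference of 0.04 ± 0.10 on the probe set used and of -0.03 where its probe sets were averaged. The NOD2 pathway list had 0 of 26 members past the threshold and a median of -0.06. Itgb7, the partner chain of CD103, stood at 8.45, 8.50, 8.44 and 8.45 against 8.35, 8.58 and 8.35 (-0.03 ± 0.09). The receptors Csf2ra (-0.03 ± 0.09), Csf2rb (-0.06 ± 0.12) and Csf2rb2 (0.05 ± 0.10) for GM-CSF and Flt3 (-0.09 ± 0.08) also had small differences. In the list of GM-CSF, Flt3 receptor and STAT5 response genes 0 of 23 passed, with a median of -0.03, and in that of the TGF-beta pathway and regulators of CD103 0 of 31, with a median of -0.09. Among 31 integrins and adhesion genes besides Itgae 0 passed, with a median of -0.03.

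Markers of the labelled cell type were high in both groups. The mean over 30 genes of cDC1 identity without Itgae was 10.43 to 10.54 in PBS CD103 low and 10.45 to 10.53 in MDP CD103 high, and 0 of 30 passed. Cd8a, which encodes the sorted CD8 chain, stood at 10.35, 10.64, 10.41 and 10.15 against 10.30, 10.24 and 10.31, and Ly75, which encodes CD205, at 9.31, 9.40, 9.32 and 9.15 against 9.20, 9.14 and 8.99. Of the marker lists of other cell types, 0 members passed. Above background lay 2 of 14 markers of neutrophils and granulocyte precursors, 1 of 10 of T cells, 4 of 12 of B cells, 5 of 11 of natural killer cells, 1 of 7 of erythroid cells and 3 of 11 of the B16 melanoma. The list means in PBS CD103 low and MDP CD103 high were 4.25 to 4.41 and 4.27 to 4.33 (granulocyte precursors), 4.65 to 4.80 and 4.64 to 4.74 (erythroid) and 4.70 to 4.88 and 4.75 to 4.86 (melanoma). They were 5.52 to 5.68 and 5.51 to 5.53 for B cells, 4.63 to 4.77 and 4.55 to 4.68 for T cells. For natural killer cells they were 4.93 to 5.12 and 4.85 to 4.96, and 3 of the 11 markers had an unadjusted limma p under 0.05. The part of these cell types in the differences was not tested. Markers of cDC2 (10 of 15 above background) had list means of 5.15 to 5.37 against 5.14 to 5.24, those of monocytes and macrophages (9 of 15) 5.68 to 5.91 against 5.61 to 5.78.

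The difference can be followed over either intermediate group. For the 171 division genes the median was -0.15 from PBS CD103 low to PBS CD103 high and 0.68 from there to MDP CD103 high, and it was -0.04 from PBS CD103 low to MDP CD103 low and 0.59 from there to MDP CD103 high. These steps share arrays, with opposite sign where they meet. The 84 genes that rose had medians of -0.08 and 0.73 along the first path and of 0.00 and 0.69 along the second. Dhrs3, a retinaldehyde reductase, was the gene among the 84 that did not lie above MDP CD103 low: it stood at 7.36 ± 0.02 (SD, n = 4) in PBS CD103 low and at 7.79 ± 0.06, 7.82 ± 0.18 and 7.79 ± 0.08 (SD, n = 3 each) in PBS CD103 high, MDP CD103 low and MDP CD103 high. For Lrr1 the steps were -0.16 ± 0.15 and 1.35 ± 0.16 over PBS CD103 high and 0.19 ± 0.15 and 1.01 ± 0.16 over MDP CD103 low. For Ccr7 they were 0.38 ± 0.32 and -1.80 ± 0.34 over PBS CD103 high and 0.34 ± 0.32 and -1.76 ± 0.34 over MDP CD103 low.

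Over all 22180 genes, the threshold was passed by 0.0766% of genes from PBS CD103 low to PBS CD103 high, by 1.82% from PBS CD103 high to MDP CD103 high, by 0.00451% from PBS CD103 low to MDP CD103 low and by 0.523% from MDP CD103 low to MDP CD103 high. A fit with arrays of the same treatment and replicate number as a random block was added after seeing the data. With this block, 190 genes in place of 116 passed from MDP CD103 low to MDP CD103 high, and 2 in place of 1 from PBS CD103 low to MDP CD103 low. From PBS CD103 low to PBS CD103 high 23 passed in place of 17. From PBS CD103 high to MDP CD103 high 392 passed in place of 403. Unless the block is named, values of single genes in the steps and the interaction are from the fit without it. The interaction, which tests whether the difference between MDP and PBS was alike in both sort fractions, passed for 16 genes (0.0721%), all higher. With that block it passed for 41 genes, the 16 among them. As cells were sorted after MDP, cells that changed fraction and a response that differed between fractions cannot be told apart. No array was left out in turn for the steps or the interaction. A positive value means a larger MDP minus PBS difference in the CD103 high fraction. Esco2 was among the 16 genes, at 1.43 ± 0.19 (limma adjusted p = 0.049), and so was Fancd2, at 1.12 ± 0.16 (limma adjusted p = 0.049). With the block the limma adjusted p was 0.028 for both. Esco2 stood at 6.15, 6.67 and 6.75 in MDP CD103 low and at 7.06, 6.74 and 6.77 in PBS CD103 high.

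**Figure D5:**
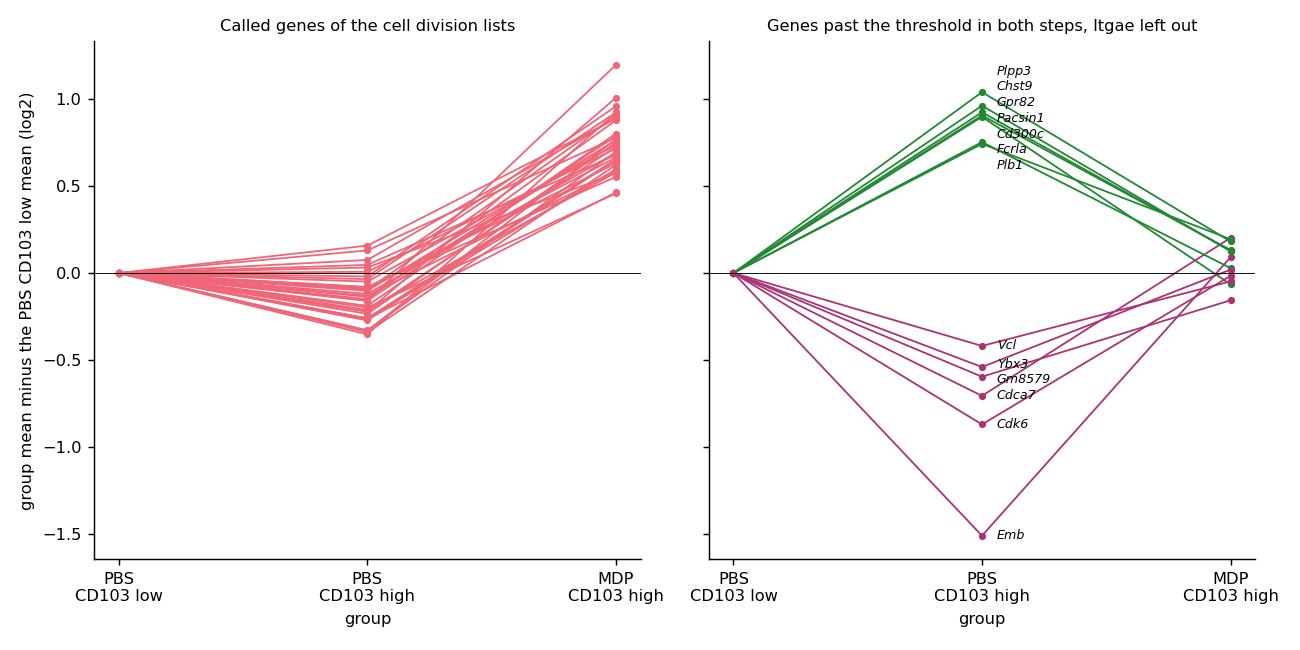
Group means relative to PBS CD103 low (log2) in PBS CD103 low, PBS CD103 high and MDP CD103 high, on the left for the 35 division genes that rose and on the right for the 13 genes besides Itgae past the threshold in both steps. The division genes stay near or below 0 in PBS CD103 high and lie above 0 in MDP CD103 high, and the 13 genes on the right leave 0 in PBS CD103 high and lie within 0.21 of it in MDP CD103 high.

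A further set of genes differed in both steps over PBS CD103 high and hardly in the sum. Besides Itgae 13 genes passed in both steps, and in each the steps had opposite signs. As both steps contain the PBS CD103 high arrays, a value particular to these arrays enters them with opposite sign. Emb (chromosome 13), embigin, a membrane glycoprotein, stood at 6.77, 6.90, 6.56 and 6.92 in PBS CD103 low, at 4.90, 5.36 and 5.58 in PBS CD103 high and at 6.81, 6.85 and 6.98 in MDP CD103 high. Its steps were -1.51 ± 0.15 (limma adjusted p = 0.0038) and 1.60 ± 0.16 (limma adjusted p = 0.0043), and their sum was 0.09. With the random block the limma adjusted p of the steps was 0.0012 and 0.0023. Cdk6 (chromosome 5) stood at 7.64, 7.80, 7.40 and 7.75, then at 6.73, 6.50 and 7.11, then at 7.66, 7.66 and 7.58. Cdca7, a gene of dividing and stem cells, had steps of -0.70 ± 0.11 and 0.91 ± 0.12, and Vcl, Ybx3 and the predicted gene Gm8579 had the same order of signs.

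In the opposite order, Cd300c (chromosome 11), a receptor of the CD300 family, stood at 8.34, 8.66, 8.53 and 8.73 in PBS CD103 low, at 9.22, 9.44 and 9.72 in PBS CD103 high and at 8.59, 8.49 and 8.42 in MDP CD103 high. Its steps were 0.90 ± 0.13 (limma adjusted p = 0.033) and -0.96 ± 0.14 (limma adjusted p = 0.0052). With the random block the limma adjusted p was 0.017 and 0.0054. Pacsin1, an adaptor of membrane traffic, had steps of 0.90 ± 0.13 and -0.77 ± 0.14, and Plpp3, a lipid phosphatase, of 1.04 ± 0.16 and -0.86 ± 0.17. Cd300c and Pacsin1 are also markers of plasmacytoid dendritic cells. The mean over the 14 measured markers of that type, 11 of them above background, was 6.50 to 6.58 in PBS CD103 low, 6.64 to 6.77 in PBS CD103 high and 6.55 to 6.59 in MDP CD103 high. Cd300c and Pacsin1 are part of that mean. The median of the 14 markers was -0.01 in the first step and -0.06 in the second, so the list did not move as a whole. The part of that cell type in these differences was not tested. Fcrla, Gpr82, Plb1 and Chst9 had the same order of signs, and Chst9 stayed under the background level. Bcl2, the guardian against cell death, stood at 7.42 ± 0.04 (SD, n = 4) in PBS CD103 low, 6.85 ± 0.21 in PBS CD103 high and 7.25 ± 0.09 in MDP CD103 high (SD, n = 3 each). It fell by 0.57 ± 0.09 in the first step (limma adjusted p = 0.041) and did not pass in the second (limma adjusted p = 0.060) or in the sum. With the random block the limma adjusted p of the steps was 0.027 and 0.055.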

How the data were processed

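RNA of 13 samples of sorted CD205+CD8+ spleen dendritic cells, extracted with Trizol and pre-amplified, was measured on Mouse Gene 2.0 ST arrays. The authors deposited log2 values per probe set; the submitters' processing notes name RMA and Affymetrix Expression Console, and their versions are not known here. RMA makes the distributions of arrays alike, so a change shared by most genes would be removed.

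Of 41345 probe sets 23521 had 1 gene symbol, 1814 several and 16010 were not listed. They gave 22180 genes, with the probe set of the highest mean for the 1082 genes with more than 1. The RefSeq table held 21994 of the gene IDs and changed 0 symbols. A separate limma fit of the 17824 other probe sets called 0 (870 with an unadjusted p under 0.05).

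The fit used limma 3.58.1 in R 4.3.3 on all arrays, with 1 mean per group and eBayes (9 residual and 3.86 prior degrees of freedom, median SE 0.103). Tests were two-sided, with Benjamini-Hochberg over all genes. The fit was checked on simulated data with known answers, with changes of 1 or 2 on the log2 scale in genes that varied independently. Smaller changes, such as most of the rises reported here, and genes that move together were not simulated. Tables and plots were made in Python 3.11.15 (pandas 2.3.3, numpy 2.4.6, matplotlib 3.10.9).

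The groups, gene lists and naming rule were chosen with earlier results of these data known. Named were the 15 largest rises and falls past the threshold, up to 3 members a list in each direction or the 2 with the smallest p where none passed, genes past the threshold in both steps of a path, the 5 highest and 5 lowest correlations with Itgae, and a fixed set around CD103, NOD2, GM-CSF and maturation. Predicted, olfactory and antigen receptor genes were counted but not named by size. Alternatives were the arrays fitted, the variance model, the probe set rule, dim genes, centring, array weights, blocks, a covariate for the Y chromosome (the mean of Uty, Kdm5d and Eif2s3y), and each array left out. The split by Xist was added after seeing the data. Replicate numbers recur across groups without a stated meaning. Within a treatment, the 4 pairs of CD103 low and high arrays with the same number had deviations from the group means that correlated at 0.196 to 0.372, and each pair had the same Xist state, so the numbers were taken to pair arrays there, with the random block as the paired fit (added after seeing the data for the steps). Across treatments, MDP CD103 high and PBS CD103 low share numbers 3 and 4. Number 3 correlated at 0.00955 and differed in Xist state. Number 4 correlated at 0.450, above the pairs within a treatment, and both its arrays had high Xist. Arrays of both groups with different numbers reached 0.291. The numbers were not taken to pair arrays across treatments, although number 4 met the criteria used within a treatment, so such pairing is not excluded.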

Additional observations from a re-analysis of the deposited data

Results flagged for a closer look

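In PBS CD103 low, the only group of 4 arrays, 9 of 111 genes checked had an array far from the other 3, where the gap to the nearest array as a share of the group's range exceeded Dixon's 95% critical value. Chance gives about 1 in 20. The largest share was that of Lrrc32, which anchors latent TGF-beta on the cell surface: 0.990, with 6.04, 6.03 and 6.03 on 3 arrays and 5.54 on replicate 6. Cd40, the costimulatory receptor for T cell help, had a share of 0.858, with 8.11 on replicate 4 against 7.49 to 7.58 on the others. Slc4a1, the anion exchanger of red cells, had 0.878 (replicate 1 high, at 5.13), and S100a8, a neutrophil protein, 0.932 (replicate 4 low, at 2.28), both close to or below background. The share was 0.843 for Chst9, 0.839 for Fcrla, 0.840 for Itgb8, 0.833 for Ttll4 and 0.857 for Ybx3. None of these 9 genes passed the threshold between MDP CD103 high and PBS CD103 low.

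The difference between MDP and PBS was not alike in the CD103 fractions, by the interaction term of the limma fit, for Esco2 (1.43, adjusted p = 0.049) and Fancd2 (1.12, adjusted p = 0.049). For both genes it was larger in the CD103 high fraction. Cells that changed fraction after MDP and a response that differed between fractions cannot be told apart. They are the 2 genes named by rule among the 16 past the threshold of that term.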

How the results depend on the processing

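The number of genes past the threshold, 89 with 84 higher and 5 lower, moved by more than 1.5 times under many alternatives. It was 148 (34 lower) with the 7 arrays of both groups alone, 158 (145 higher, 13 lower) with a variance trend and robust fit, 167 (157 higher, 10 lower) without dim genes, 134 (12 lower) with array weights, and 0 with all probe sets adjusted together (2822 with an unadjusted p under 0.05). Centring left 53 genes higher. With any of the 13 arrays left out it ranged from 0 to 187, from 0 to 149 for the higher and from 0 to 38 for the lower genes; a group left with 2 arrays is assumed to vary like the others. With the mean of probe sets, the random block and the Y-linked covariate it was 86, 84 and 63. Of the 28 named genes past the threshold, each lost the call in 4 to 16 of 23 alternatives and 0 changed sign. Of the 82 that missed it, 14 gained a call in some alternative. The division median stayed between 0.36 and 0.61, and 26 of 36 list medians kept their sign. The cause of these changes was not tested.

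The replicate number as a block left 0 genes higher and 0 lower (1618 with an unadjusted p under 0.05), with 4 residual degrees of freedom, and a division median of 0.36. A random block by treatment and number had a correlation of 0.183 and called 84 genes, of which 83 were among the 89. With it the 13 genes past the threshold in both steps over PBS CD103 high kept both calls.

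Small differences that missed the threshold changed sign. Under the block by replicate number alone, not the random block, these were Cd300c (0.0442), Cdk6 (0.0241), Csf2ra (0.0249), Csf2rb (0.0584), Itgb7 (0.00221) and Ybx3 (-0.0245). Under centring they were Fcrla (-0.00417) and Ybx3 (-0.0128). Under the Y-linked covariate Cdk6 (0.0139) changed sign, and with the mean of probe sets Nod2 (-0.0294). With 1 array left out they were Cdk6 (range -0.0978 to 0.0323), Csf2rb (-0.0948 to 0.00396), Csf2rb2 (-0.000833 to 0.109), Fcrla (-0.0245 to 0.113), Itgb7 (-0.105 to 0.00768) and Ybx3 (-0.0376 to 0.0559).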

Other observations

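Genes of metabolism and antigen presentation were described by the same lists. Of 19 measured genes of cholesterol synthesis 0 passed, 15 differences were below 0 and the median was -0.11. Msmo1, a sterol oxidase of that pathway, stood at 6.96, 6.95, 7.11 and 6.9998 in PBS CD103 low and at 6.53, 6.58 and 6.76 in MDP CD103 high, a difference of -0.38 ± 0.08 (limma adjusted p = 0.070). In glycolysis 0 of 22 passed, with a median of 0.04, and Pkm, pyruvate kinase, stood at 10.43, 10.48, 10.46 and 10.38 against 10.63, 10.62 and 10.67 (0.20 ± 0.06, limma adjusted p = 0.21). The respiratory chain (0 of 30, median 0.02), MHC class I loading (0 of 23, median 0.00) and MHC class II (0 of 16, median -0.03) lay near the median of all genes. So did the Bcl2 family and p53 response (0 of 27, median 0.00), Toll-like receptors (0 of 18, median -0.04), costimulation and checkpoint genes (0 of 26, median -0.05) and immediate-early genes (0 of 28, median -0.01). Chemokines (0 of 15) and migration receptors (0 of 16) had medians of -0.09 and -0.13.

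Among 13 guanylate-binding proteins and related GTPases, which act against pathogens inside the cell, 0 passed and the median was -0.21. Gbp10 stood at 7.99, 8.19, 8.12 and 8.06 in PBS CD103 low and at 7.29, 7.16 and 7.18 in MDP CD103 high, with no overlap (-0.88 ± 0.22, limma adjusted p = 0.14). On MDP CD103 low replicate 1 it was at 9.30, and without that array its adjusted p was 0.00075. Klrk1, which encodes the activating receptor NKG2D, stood at 8.98, 8.96, 9.13 and 9.10 in PBS CD103 low and at 8.80, 8.71 and 8.62 in PBS CD103 high. In MDP CD103 low it was at 9.09, 9.11 and 9.13 and in MDP CD103 high at 8.69, 8.64 and 8.83. Both CD103 high groups thus lay below both CD103 low groups, although the difference of -0.32 ± 0.07 did not pass (limma adjusted p = 0.098). The genes that ran most strongly against Itgae over the 13 arrays were Jchain (Pearson r = -0.853), Wnt11 (-0.852), Rilpl1 (-0.846), Dnajc27 (-0.839) and Tex13d (-0.838), as a description over arrays that share groups.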
